A study of Drosophila melanogaster with 2 samples.

Results

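The proteasome is the protease complex that degrades ubiquitin-tagged proteins, and its subunit genes were taken here by name: every gene whose symbol in the platform annotation begins with Prosalpha, Prosbeta, Rpn and a digit, or Rpt and a digit, and that had a value on both arrays. The rule used no measured value and gave 38 genes of the 8224 genes measured. Of these, 27 encode the standard subunits, 13 of the core particle and 14 of the regulatory particle, and 11 are paralogs marked by a T or an R after the subunit number. RefSeq lists 48 genes with such names. The standard subunit genes Prosbeta1, Rpt1, Rpt6, Rpn9 and Rpn10 and the paralogs Prosalpha1R, Prosalpha3T, Prosbeta5R2 and Rpt6R were not analysed here, and Prosbeta2R1 shares its probe with another gene and was left out. No filter on low values was applied, so all 38 genes entered the test.

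The core particle is a barrel of stacked rings. Its outer rings of alpha subunits gate the entry, and its inner rings of beta subunits carry the proteolytic sites. The regulatory particle caps the barrel: its base holds the Rpt ATPases, which unfold substrates, and the receptors that bind ubiquitin, and its lid removes ubiquitin chains before degradation. In Drosophila the T and R paralogs are known mostly from the testis, where some replace their standard counterpart during spermatogenesis.

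The data were 2 two-colour arrays of whole Drosophila melanogaster embryos, named A and B. Each array held RNA of hemocyte minus embryos, which were serpent (srp) mutants, and RNA of hemocyte plus embryos, which were wild type. Fly blood cells are called hemocytes, and srp encodes a GATA factor needed to form them and the fat body. Array A had hemocyte minus RNA in Cy3 and hemocyte plus RNA in Cy5, both from unwounded embryos, and array B had the dyes swapped, with no word on wounding in its labels. The allele, the embryos' age and any use of separate RNA extracts were not given in the sources used here. A p-value therefore rests on the spread between these 2 arrays, which limma weighs for each gene with that of all genes. That spread may be technical.

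All values below are log2 ratios of hemocyte minus over hemocyte plus embryos, centred on the median of each array, so a positive value means higher in the mutants. Which dye forms the numerator was not given in the sources used here. Direction is therefore the likely one, taken from hemocyte markers after their values had been seen. With Cy3 as the numerator, 12 of 16 measured hemocyte markers passed limma on the hemocyte plus side and 0 on the other, with the crystal cell gene PPO1 at -4.87. If Cy5 was the numerator, every sign below turns while sizes and p-values stay. The mutated gene itself, srp, lay at -0.15 on A and -0.36 on B and did not pass (limma adjusted p = 0.221). Its probe's place relative to the lesion is unknown, so the genotype is not checked by it. Without channel intensities the signal of a gene over background is unknown, and the number of arrays limits the precision.

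Among the proteasome genes, Prosalpha1 was higher in hemocyte minus embryos in the likely direction, and no other member passed the test. Prosalpha1 encodes a subunit of the alpha ring. Its deposited ratio had a size of 1.448 on A and 0.543 on B, which gave log2 ratios of 0.55 and 0.91. Both arrays thus placed it on the mutant side, above every other member on each array. Its mean of 0.73 ± 0.26 (SD, n = 2 arrays) is a 1.66-fold difference (limma adjusted p = 0.0176, 95% interval 0.41 to 1.05). In RNA of whole embryos, a changed share of cells of a type and a changed amount of RNA per cell cannot be told apart.

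Members past the limma threshold were 1 of 38, or 2.63%, against 13.4% of all genes on either side and 8.18% on the mutant side. None passed on the hemocyte plus side, where 5.27% of all genes passed. At an unadjusted p under 0.05 were 2 members, Prosalpha1 and the paralog Prosbeta2R2, or 5.26% of members against 27.5% of all genes. Tested against a 1.2-fold difference rather than 0, Prosalpha1 did not pass (limma treat adjusted p = 0.0794), so 0 of 38 members did, against 6.51% of all genes.

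The call for Prosalpha1 rests on 1 probe. RefSeq lists a related gene, Prosalpha1R, 2 places away in gene order. Whether the Prosalpha1 probe also binds Prosalpha1R transcripts was not tested. The nearest measured genes on either side, named after their values were seen, were cathD, 3 places away at -0.65 ± 0.23 (limma adjusted p = 0.0246), and Dgk, 5 places away at 0.02 ± 0.19 (limma adjusted p = 0.924). One neighbour thus lay on the hemocyte plus side and the other near 0.

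**Figure D1:**
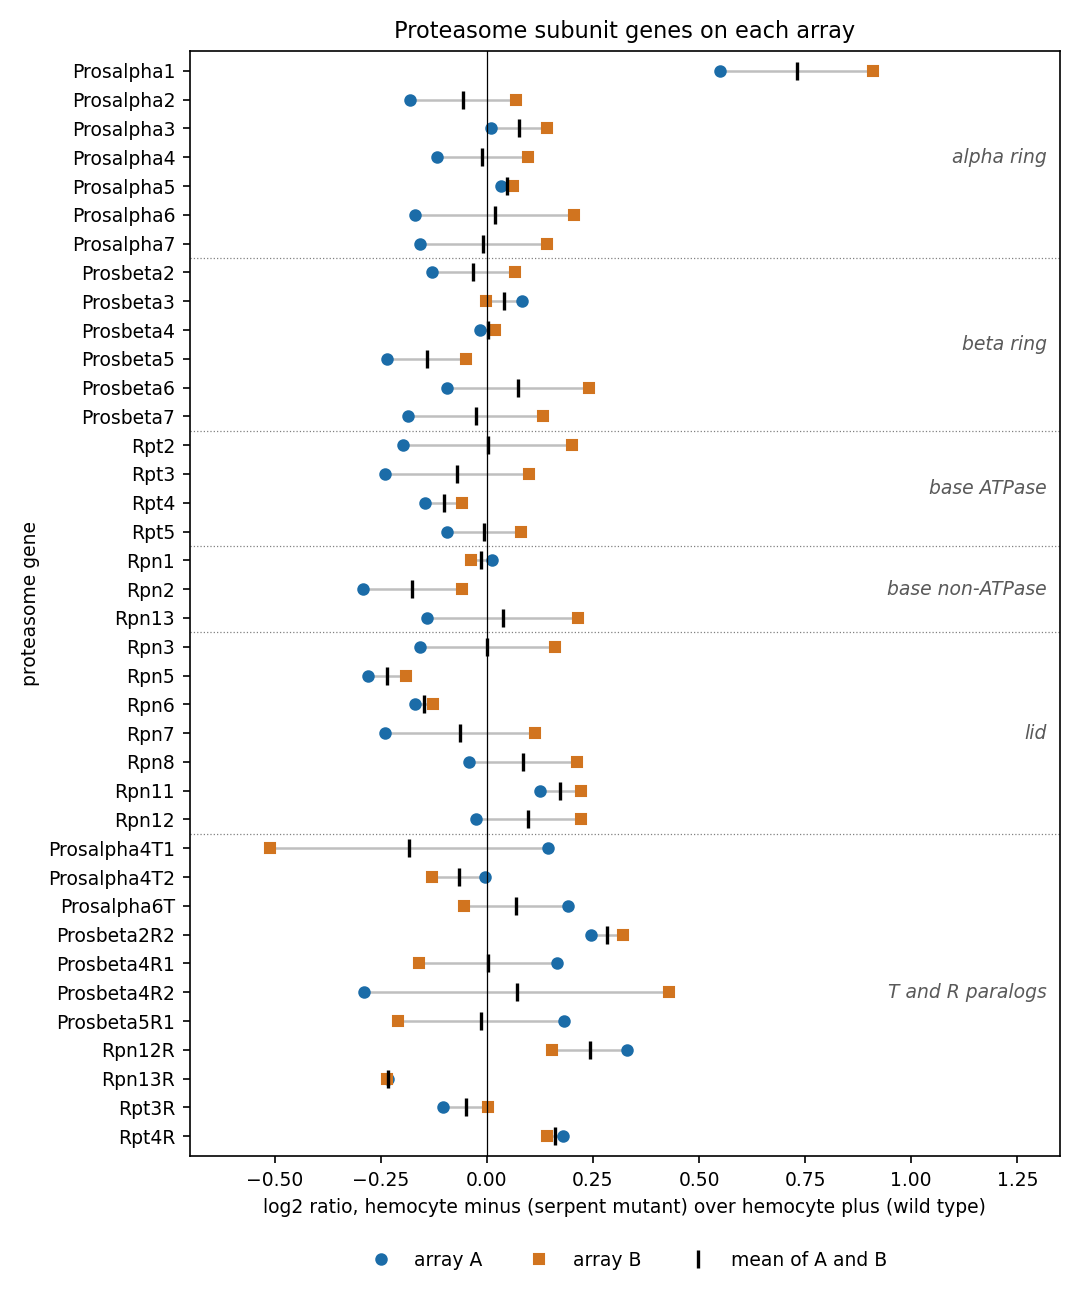
Log2 ratio of hemocyte minus over hemocyte plus embryos (x axis, direction likely) for each of the 38 proteasome genes (y axis), with a circle for array A, a square for array B and a tick for their mean. Prosalpha1 at 0.55 and 0.91 stands apart on both arrays, and most standard subunits have their circle left of their square.

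The other alpha ring genes lay close to 0. Prosalpha2 had -0.18 on A and 0.07 on B, Prosalpha4 -0.12 and 0.10, Prosalpha6 -0.17 and 0.21, and Prosalpha7 -0.16 and 0.14, each with its arrays on different sides of 0. Prosalpha3, whose yeast counterpart holds the gate of the barrel shut, had 0.01 and 0.14, and Prosalpha5 had 0.03 and 0.06. The means of these 6 genes ran from -0.06 (Prosalpha2) to 0.08 (Prosalpha3), all below the 0.73 of Prosalpha1.

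The beta ring genes, which include those of the proteolytic subunits, gave 0 calls among 6 measured, against 13.4% of all genes. So few genes show little by their count. Prosbeta5, the subunit with chymotrypsin-like activity, was the lowest, with -0.24 on A, -0.05 on B and a mean of -0.14 ± 0.13 (limma adjusted p = 0.482). Prosbeta2, the subunit with trypsin-like activity, had -0.13 and 0.07. Both were thus within 0.25 of the array medians on each array. The structural subunit genes Prosbeta3 (0.08 and -0.0014), Prosbeta4 (-0.02 and 0.02), Prosbeta6 (-0.09 and 0.24) and Prosbeta7 (-0.18 and 0.13) had means between -0.03 and 0.07.

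In the base of the regulatory particle, 4 ATPase genes and 3 others were measured and none passed, against 13.4% of all genes. The ATPase genes Rpt2 (-0.20 on A and 0.20 on B), Rpt3 (-0.24 and 0.10), Rpt4 (-0.15 and -0.06) and Rpt5 (-0.09 and 0.08) were all below 0 on array A and, apart from Rpt4, above 0 on array B. Rpn2, the scaffold that holds the ubiquitin receptor Rpn13, had -0.29 and -0.06, with a mean of -0.18 ± 0.16 (limma adjusted p = 0.395). Rpn13 had -0.14 and 0.22, and its 2 probes gave means of 0.04 and 0.03. Rpn1, a large scaffold that docks ubiquitin-binding proteins, had 0.01 and -0.04 as the average of 2 probes that crossed: one had 0.22 and -0.13, the other -0.19 and 0.06.

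The lid genes spread a little wider, from Rpn5 to Rpn11. Rpn5, a scaffold subunit of the lid, had -0.28 on A and -0.19 on B, the lowest mean of the 27 standard subunits at -0.23 ± 0.06 (limma adjusted p = 0.232). Rpn6, another lid scaffold, had -0.17 and -0.13, a mean of -0.15 ± 0.03. Both arrays thus agreed on the side of these genes, and neither gene passed. Rpn11, the metalloprotease that cuts ubiquitin chains off substrates, had 0.13 and 0.22, with a mean of 0.17 ± 0.07 (limma adjusted p = 0.368). Its inactive partner Rpn8 had -0.04 and 0.21. The remaining lid genes Rpn3 (-0.16 and 0.16), Rpn7 (-0.24 and 0.11) and Rpn12 (-0.03 and 0.22) each had the arrays on different sides. The probes of Rpn12, a clone and its re-amplified copy, had means of 0.10 and 0.09.

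Core and regulatory particle genes did not separate in their ratios. The median over the 13 core genes was 0.0019, and over the 14 regulatory genes -0.01. The difference of the medians was 0.03 on A and -0.0099 on B, so the arrays did not agree on its sign. This difference was not tested. Within the regulatory particle the medians were -0.04 for the base ATPases, -0.01 for the other base genes and 0.0013 for the lid.

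The intervals show how large a difference these arrays would still allow. For 36 of the 38 members (94.7%), the 95% limma interval lay wholly within a 1.5-fold difference in either direction, against 70.8% of all genes. The exceptions were Prosalpha1 and Prosalpha4T1. Leaving out Prosalpha1, the interval that reached farthest from 0 among the 26 other standard subunits was that of Rpn5, whose lower end was -0.50, a 1.42-fold difference. The median half-width was 0.29 for the 27 standard subunits and 0.28 for all genes, so the intervals of the members were not narrower than those of other genes. Such closeness is largely built in, because limma takes most of each gene's variance from all genes (5.01 prior against 1 residual degrees of freedom). The means of the members lay nearer to 0: the median size of the mean log2 ratio was 0.056 for the 27 standard subunits, 0.070 for the 11 paralogs and 0.17 for all genes.

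**Figure D2:**
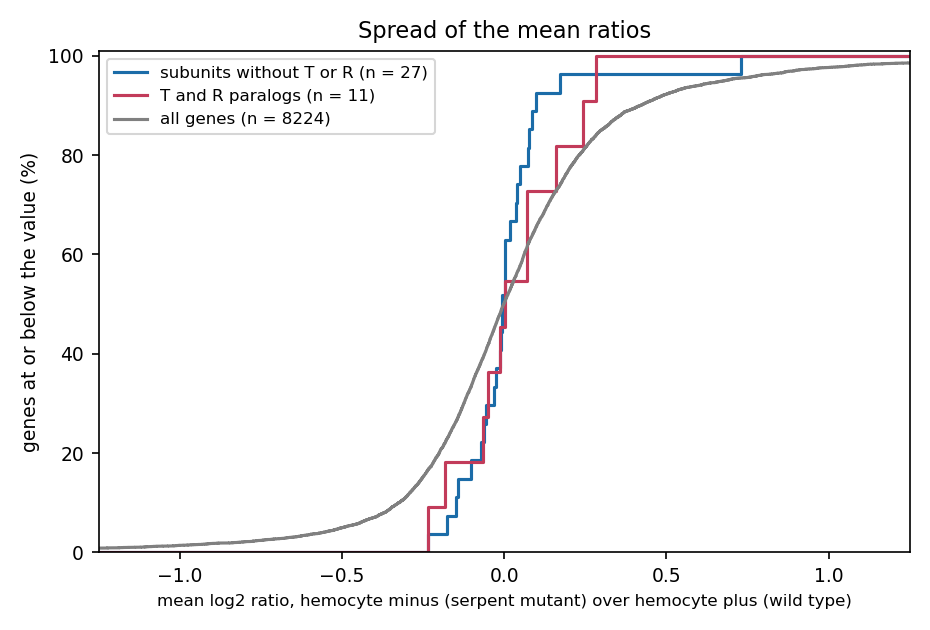
Percent of genes (y axis) at or below a given mean log2 ratio of hemocyte minus over hemocyte plus embryos (x axis, direction likely), for 27 standard subunits, 11 paralogs and all 8224 genes. The curve of the standard subunits climbs steeply from -0.23 to 0.17 and reaches its last step at 0.73, that of Prosalpha1; the curve of all genes climbs more slowly and runs past both ends of the axis.

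The standard subunits shared a displacement between the arrays. For 25 of 27 genes (92.6%) the ratio was lower on array A than on array B, against 54.5% of all genes, the exceptions being Prosbeta3 and Rpn1. Their median was -0.14 on A and 0.10 on B, and 16 of the 27 lay below 0 on A and above 0 on B, a pattern shown by 16.4% of all genes. Before the arrays were turned to one direction, this is a ratio on the same side of the array median on both, whichever dye held the mutant RNA. The median difference of A minus B was -0.23 for these genes and -0.03 for all genes. Averaging a dye swap removes a difference tied to the dyes while leaving it in the SD, and its part here was not tested.

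Most paralogs were displaced the other way. For 3 of 11 the ratio was lower on array A than on array B, among them Prosbeta4R2, which had the widest gap of any member. Over the 11 paralogs the median difference of A minus B was 0.12, with medians of 0.17 on A and -0.05 on B. The median size of the gap was 0.18 for the paralogs, 0.23 for the standard subunits and 0.17 for all genes. Across the 27 standard subunits the 2 arrays had Pearson r = 0.73, which fell to 0.28 over the 26 genes without Prosalpha1, while all genes gave 0.75 and the 11 paralogs -0.08. These correlations are across genes that share the same arrays and dyes, so they are given as descriptions.

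**Figure D3:**
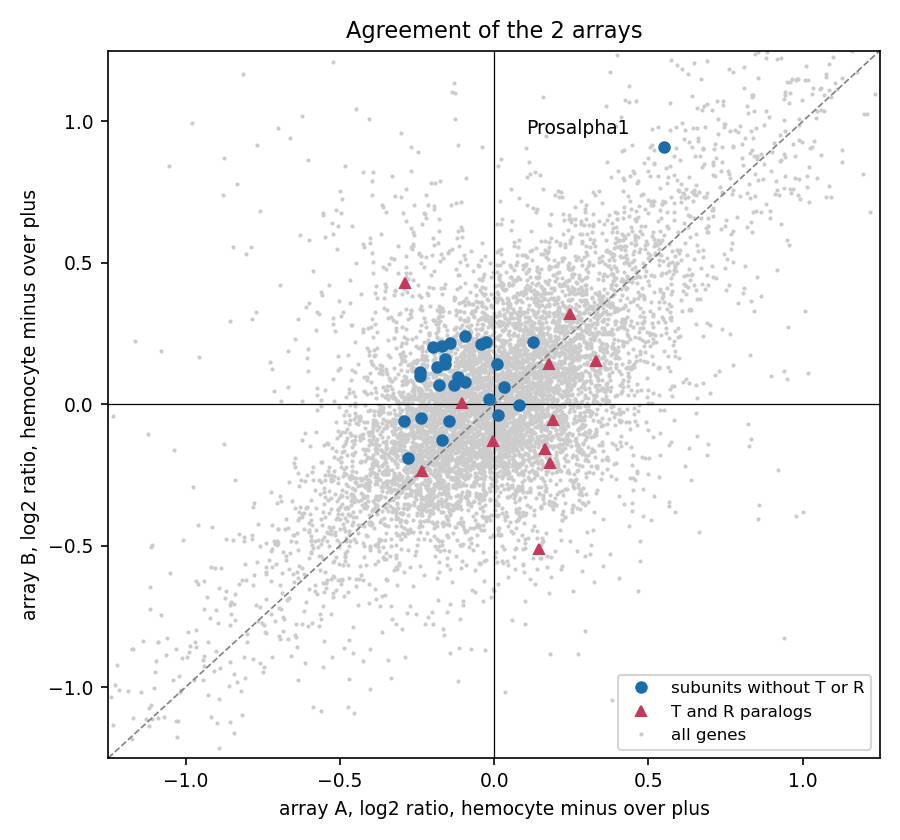
Log2 ratio of hemocyte minus over hemocyte plus embryos (direction likely) on array A (x axis) and array B (y axis) for 27 standard subunits, 11 paralogs and all genes, with a dashed line of equality; 248 genes lie outside the axes. Most standard subunits sit at upper left, below 0 on array A and above 0 on array B, and Prosalpha1 is the member farthest to the upper right.

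None of the 11 T and R paralogs passed the test, against 13.4% of all genes, so the count over these few genes shows little. Prosbeta2R2 had the highest mean, with 0.24 on A and 0.32 on B and a mean of 0.28 ± 0.05 (limma adjusted p = 0.162). Rpn12R had 0.33 and 0.15, a mean of 0.24 ± 0.13, and Rpt4R had 0.18 and 0.14, a mean of 0.16 ± 0.03. These 3 were above 0 on both arrays. Rpn13R had -0.23 and -0.24, a mean of -0.23 ± 0.0023 (limma adjusted p = 0.228), and Prosalpha4T2 had -0.0044 and -0.13, so both lay below 0 on each array.

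The remaining paralogs had their arrays on different sides. Prosalpha4T1 had 0.14 on A and -0.51 on B, and its interval of -0.60 to 0.24 was the only one among the paralogs to pass 1.5-fold. Prosbeta4R2 had -0.29 and 0.43, the widest gap of any member at 0.72. Prosbeta4R1, the other paralog of that subunit, had 0.17 and -0.16. Prosalpha6T, which is needed for sperm formation, had 0.19 and -0.05, Prosbeta5R1 had 0.18 and -0.21, and Rpt3R had -0.10 and 0.0028.

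Beside their parent subunits, 3 of the 11 paralogs kept one side on both arrays. Prosbeta2R2 lay 0.37 above Prosbeta2 on A and 0.25 above it on B, a difference of 0.31 ± 0.09 (SD, n = 2 arrays). Rpt4R lay 0.33 and 0.20 above Rpt4, a difference of 0.26 ± 0.09. Rpn13R minus Rpn13 was -0.09 and -0.45, a difference of -0.27 ± 0.26. For the other 8 pairs the sign turned between the arrays. The paralog was the higher of the pair in 9 of the 11 pairs on A and in 3 on B. These differences hold the opposite displacements of the 2 gene groups between the arrays, and the part of those was not tested. Over all 11 pairs the median difference was 0.05, with 0.26 on A and -0.16 on B. Single pairs were not tested.

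**Figure D4:**
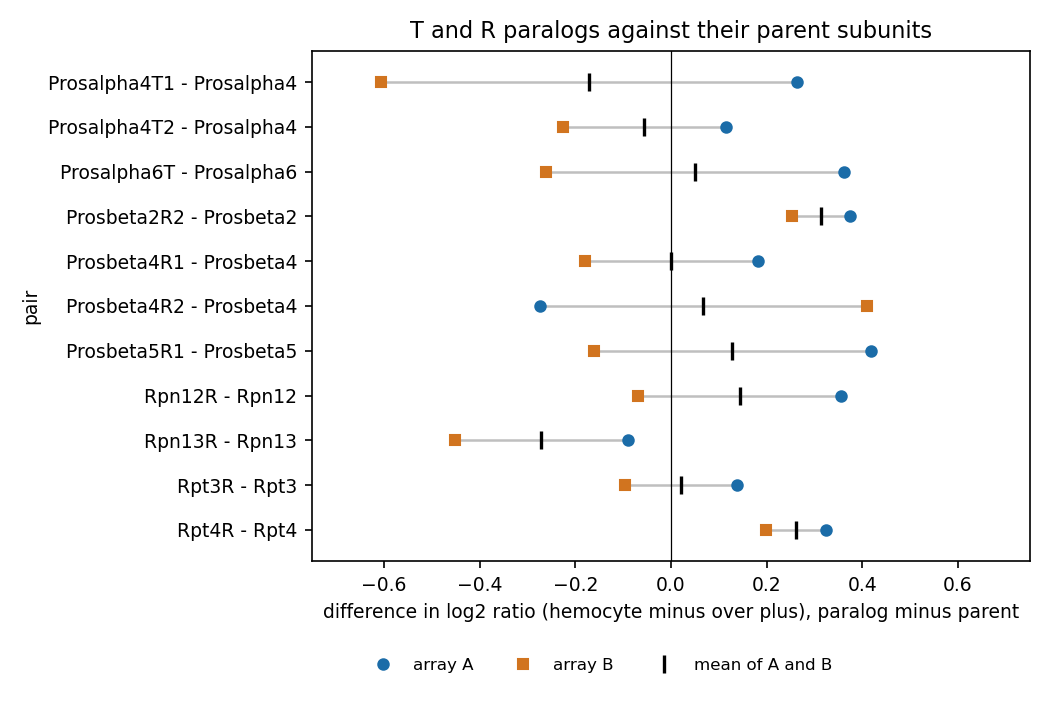
Difference in log2 ratio (hemocyte minus over hemocyte plus embryos, direction likely) of each paralog minus its parent subunit (x axis) for 11 pairs (y axis), with a circle for array A, a square for array B and a tick for the mean. Prosbeta2R2 and Rpt4R lie right of 0 and Rpn13R left of 0 on both arrays, and the other pairs straddle 0.

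The paralogs also shared the origin of their probes. Of their 11 probes, 10 are clones of the adult testis library, whose names begin with AT, against 3 of the 30 probes of the standard subunits, those of Rpn3 and Rpn8 and one probe of Rpn13. Of 24 listed genes of the testis and male germline, 13 were measured and none passed, with means from -0.30 to 0.44 and a median of 0.03. Of 8 germline genes, 6 were measured, and 1 passed on each side. Over all genes, 8.18% passed on the mutant side and 5.27% on the hemocyte plus side, so lists this short show little by their counts. Whether the paralogs or these genes gave signal above background in embryos is unknown without intensities, and the values therefore do not show that their transcripts were present.

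Around the proteasome, 51 of 65 listed genes of ubiquitin tagging, removal, delivery and proteasome control were measured. Of these, 4 passed limma on the mutant side and 1 on the hemocyte plus side, which is 7.84% and 1.96% against 8.18% and 5.27% of all genes. Their median of -0.04 lay near the 0 of the array medians. The list is broad, and the shares are at or under those of all genes.

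Of the 6 measured deubiquitinase genes, 1 passed on each side. Over all genes, 8.18% passed on the mutant side and 5.27% on the hemocyte plus side, and 6 genes show little by their counts. Usp14, which binds the regulatory particle and trims ubiquitin chains there, had -0.99 on A and -0.85 on B. The mean of -0.92 ± 0.09 (SD, n = 2 arrays) is a 1.89-fold difference, lower in hemocyte minus embryos (limma adjusted p = 0.00450). Uch-L5, the other deubiquitinase known to bind the proteasome at Rpn13, had 0.04 and -0.08. Uch, a ubiquitin hydrolase that acts on ubiquitin precursors, had 0.46 and 0.78. Its mean was 0.62 ± 0.23, higher in hemocyte minus embryos (limma adjusted p = 0.0273). Against a 1.2-fold difference Usp14 passed (limma treat adjusted p = 0.0141) and Uch did not (0.161). The calls of Usp14 and Uch rest on 1 probe each. The others, faf, Usp5 and Usp7, lay between -0.20 and 0.04 and did not pass.

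Among the tagging enzymes, 3 genes were higher in hemocyte minus embryos: 2 of 19 ligase genes and 1 of 4 activating or conjugating enzyme genes. Over all genes, 8.18% passed on that side. The ubiquitin ligase genes ari-1 (0.62 on A and 0.45 on B) and STUB1 (0.56 and 0.41), whose product tags clients of chaperones, had means of 0.53 ± 0.12 and 0.49 ± 0.10 (limma adjusted p = 0.0307 and 0.0406). Aos1, a subunit of the enzyme that activates SUMO, had 0.39 and 0.53, a mean of 0.46 ± 0.10 (limma adjusted p = 0.0477). Its partner in that enzyme, Uba2, had -0.25 and -0.20 and did not pass. The 2 probes of ari-1 disagree in size: one had 1.01 on A and 0.84 on B, and the re-amplified probe of the same clone had 0.22 and 0.07. Both the probe of largest change and the omission of marked probes leave the first probe alone. There ari-1 was at 0.93, above Uch (limma adjusted p = 0.00844 and 0.00802). Both settings thus drop the lower probe, whose mean was 0.14. The SD of 0.12 for ari-1 is taken between arrays after the probes were averaged, so it does not hold their gap. Against a 1.2-fold difference ari-1, STUB1 and Aos1 did not pass (limma treat adjusted p = 0.246, 0.376 and 0.477). The call of Aos1 was lost when the probe of largest change stood for each gene (limma adjusted p = 0.0570) or when probes marked as re-amplified, rdnd or duplicate were left out (0.0576), and that of STUB1 in the second setting (0.0501). Both genes have 1 probe and an unchanged ratio there, so what moved was the values of other genes, through the variance moderation and the adjustment. Leaving out marked probes can also change the set of genes adjusted over, which the probe of largest change cannot.

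The other measured ubiquitin ligase genes of the list, its 5 cullins among them, lay from -0.26 to 0.11 and did not pass. The remaining roles gave 0 limma calls among 22 genes, against 13.4% of all genes. At an unadjusted limma p under 0.05 was 1 of these genes, Ubi-p5E, against 27.5% of all genes. The 6 measured genes of the COP9 signalosome, a complex built on the same plan as the lid, lay from -0.18 to 0.0011. The 6 genes of the p97 ATPase and the shuttles that deliver substrates lay from -0.15 to 0.0033. The 6 regulators lay from 0.02 to 0.24, with the transcription factor gene cnc, whose mammalian relatives drive proteasome gene transcription, at 0.02 ± 0.18 and the assembly factor gene Pomp at 0.04 ± 0.16. The highest gene that did not pass was REG, an activator of the core particle, at 0.24 ± 0.06 (limma adjusted p = 0.231), and the lowest was the ubiquitin gene Ubi-p5E at -0.35 ± 0.06 (limma adjusted p = 0.102).

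**Figure D5:**
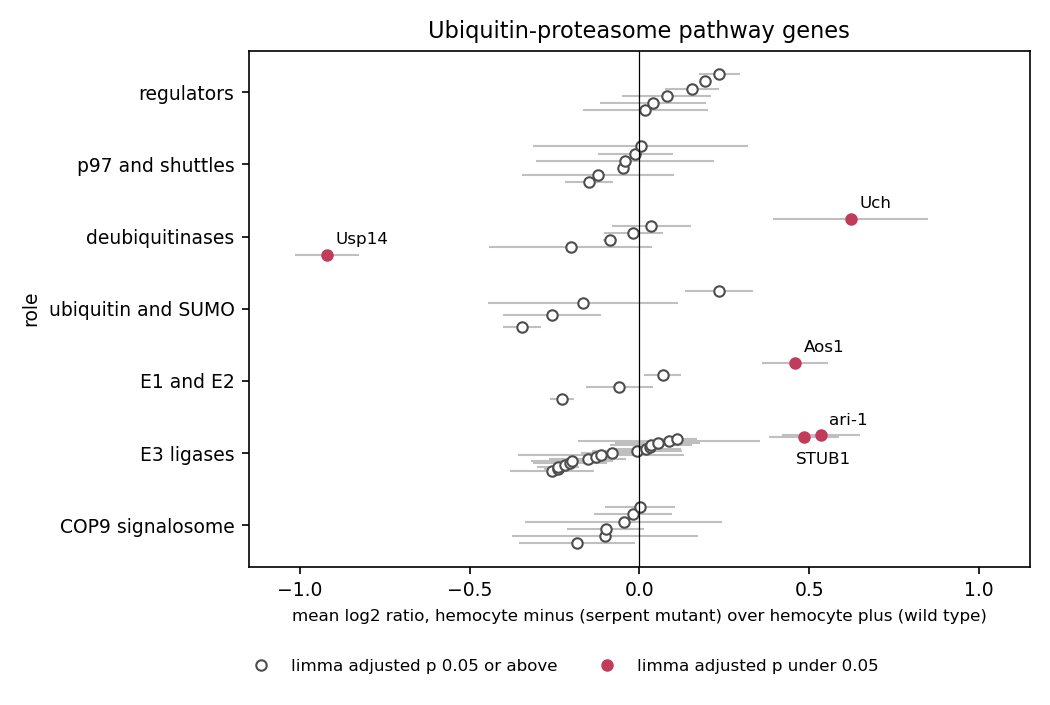
Mean log2 ratio of hemocyte minus over hemocyte plus embryos (x axis, direction likely) for 51 genes of the ubiquitin-proteasome pathway by role (y axis), with bars for the SD of the 2 arrays and filled points for genes past limma. Usp14 at -0.92 stands alone on the left, and Uch, ari-1, STUB1 and Aos1 lie between 0.46 and 0.62.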

How the data were processed

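The authors deposited 1 score per probe and array, which looks like a linear dye ratio with its sign turned (all values below 0, medians of -0.989 and -1.021). Per the labels, RNA was labelled by amino-allyl reverse transcription; scanner, background correction, normalization and numerator dye were not given in the sources used here. Sizes were put on the log2 scale, array B was turned against A following the labelled dyes, and the median of all probes was subtracted per array. Of 12144 probes, 9793 had 1 symbol and values on both arrays, and averaging them per gene left 8224 genes. They were tested against 0 with limma 3.58.1 in R 4.3.3 (intercept only, 1 residual degree of freedom, 5.01 prior degrees of freedom, Benjamini-Hochberg threshold 0.05). The procedure was also tested on simulated data with independent errors and no displacement between arrays, so that test does not cover such a displacement. Names come from the platform annotation and RefSeq gene order from Release 6. All members and the pathway genes that passed, with the highest and lowest that did not, are named. Uch-L5, faf, Usp5, Usp7, Uba2, cnc and Pomp did not pass and are named outside that rule. Members, lists and the pathway's roles were chosen with earlier results of these data known, and the 1.5-fold bound after the values were seen.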

Additional observations from a re-analysis of the deposited data

How the results depend on the processing

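Prosalpha1 was the 1 member past limma without centring, with scaled arrays, with the probe of largest change, without marked probes, with robust moderation and with each probe tested alone. Against a 1.2-fold difference 0 members passed, on either side or on the mutant side. Against 1.2-fold, a setting added for the pathway list after the data were seen, that list had 1 call in place of 5, with 0 in place of 4 on the mutant side. Without the marked probes it had 3 calls in place of 5, with 2 in place of 4 on the mutant side. All genes past limma ranged from 984 without marked probes to 1332 without centring. On single arrays, which allow no test and so no count of calls, the median of the paralogs ranged from -0.054 (array B alone) to 0.17 (array A alone), that of the standard subunits from -0.14 to 0.10, that of the core from -0.12 to 0.10, that of the regulatory particle from -0.15 to 0.11, and the difference of core minus regulatory from -0.0099 to 0.03. Each ratio sets both kinds of embryo against each other on 1 array, so the limma test is itself paired by array. Signal over background, which limits low genes, is unknown.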
